A study of Rattus norvegicus with 12 samples.

Results

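miR-99b and miR-125a-5p are made from 1 gene cluster, and they are described here together with miR-125b-5p, a close relative of miR-125a-5p made from other clusters. The 5 miRs sought by name were miR-99a, miR-99b, miR-100, miR-125a-5p and miR-125b-5p. Of these, 3 had an assay row among the 154 miRs of the table (listed there as mmu-miR-99b, mmu-miR-125a-5p and mmu-miR-125b-5p), and miR-99a and miR-100 were not analysed here. The miRs were measured with TaqMan rodent miR cards in single dorsal root ganglia (DRG) of adult male Sprague-Dawley rats, taken 23 days after surgery. The paper describes its arrays of injured rats as made from DRG on the side of the injury. In Sural-SNI the common peroneal and tibial branches of the sciatic nerve were tied and transected, in Tibial-SNI the common peroneal and sural branches, and in Sham the nerve was only exposed. Each of these 3 groups had 2 L3-DRG and 2 L4-DRG arrays, numbered replicate 1 and replicate 2, which made 12 arrays. The sciatic fibers come mostly from L4-DRG and L5-DRG and the saphenous fibers from L3-DRG. The labels do not say which rat gave which DRG, so the L3-DRG and L4-DRG of a group may share a rat, and the p-values measure only the spread between these arrays.

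A miR acts by pairing with messenger RNAs through its seed, the bases near its 5′ end, and lowers the output of those messages. The miR-125 family is the mammalian counterpart of lin-4, a developmental timing miR of the worm, and it is abundant in the nervous system, where it is known for promoting neuronal differentiation. The family of miR-99 and miR-100 is known for repressing mTOR, a kinase that controls growth and protein synthesis. A member of each family lies beside a let-7 gene in clusters that are kept across mammals, and let-7 is another differentiation miR.

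In the rat the genes lie in 3 clusters (RefSeq annotation, build GRCr8). Mir99b, Mirlet7e and Mir125a lie within 696 bases of each other on the plus strand at chr1:67350064-67350759, inside the annotated bounds of the protein-coding gene Spaca6. Mir100, Mirlet7a-2 and Mir125b1 are spread over 51828 bases at chr8:50798295-50850122, inside the bounds of Mir100hgl. Mir99a, Mirlet7c1 and Mir125b2 are spread over 45268 bases at chr11:29687392-29732659, inside the long non-coding gene LOC103693508. The mature sequences below show which miRs share a seed (bases 2 to 8 from the 5′ end, in capitals) and how the members differ outside it. They are the rat sequences of RefSeq, whereas the assays carry mouse names.
miR-99b-5p: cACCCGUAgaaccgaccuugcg
miR-100-5p: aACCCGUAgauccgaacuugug
miR-125a-5p: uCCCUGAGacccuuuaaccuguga
miR-125b-5p: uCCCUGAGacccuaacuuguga
miR-351-5p: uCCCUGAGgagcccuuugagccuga
let-7e-5p: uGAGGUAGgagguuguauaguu

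These mature miRs lie at chr1:67350070-67350091 (miR-99b-5p), chr8:50798307-50798328 (miR-100-5p), chr1:67350689-67350712 (miR-125a-5p), chr11:29732588-29732609 (miR-125b-5p), chrX:137725157-137725181 on the minus strand (miR-351-5p) and chr1:67350243-67350264 (let-7e-5p). The seed ACCCGUA of miR-99b-5p was found in 2 of the 693 rat mature miRs of the RefSeq table used here, miR-99b-5p and miR-100-5p, and miR-99a-5p was not compared. These differed at 4 of 22 positions, C1A, A11U, C16A and C21U, counted from the 5′ end with the miR-99b-5p base first. The seed CCCUGAG was held by 3 of the 693, miR-125a-5p, miR-125b-5p and miR-351-5p, a miR of the X chromosome. miR-125a-5p and miR-125b-5p were identical over their first 13 bases, and set side by side from the 5′ end without gaps they differed at 7 of 22 positions. miR-125a-5p is the longer, at 24 bases against 22, so a shift in register adds to this count. The count therefore overstates how far their 3′ ends differ. The 22 bases of miR-125b-5p were also found in the hairpin of Mir125b1, so that its assay cannot tell transcripts of chromosomes 8 and 11 apart.

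The measured quantity was the Ct, the PCR cycle at which an assay crossed its threshold, so that a lower Ct means more target. Levels are given as −ΔCt, the mean Ct of the 3 reference assays (MammU6, snoRNA135 and U87) minus the Ct of the miR, on a log2 scale where 1 unit is 1 cycle. A difference between assays includes their efficiency. Ranks by Ct and the sign of such a difference therefore describe the assays as well as the miRs, and its change between arrays was the quantity compared. The arrays fell into 2 sets by replicate number. The mean Ct over the 154 miRs was 28.95 to 30.52 on the 6 replicate 1 arrays and 27.25 to 28.37 on the 6 replicate 2 arrays, and 148 of the 154 miRs had a higher mean Ct in replicate 1. The sensory neuron miRs miR-182 and miR-183, 2 of the 2 listed, were at a Ct of at most 29.22 on every array. Their mean −ΔCt was −0.51 to 0.27 on the SNI arrays of L3-DRG, where Sham was at −0.21 and −0.48, and −1.16 to −0.62 on those of L4-DRG, where Sham was at −0.13 and −0.29. Skeletal muscle miRs (4 of 4 measured) stood apart on 1 array, the L4-DRG Tibial-SNI replicate 1. Their mean −ΔCt there was −0.06, against −3.73 to −2.11 on the other 11. The glial miR-338-3p was lowest on the same array (−10.26), where its Ct was 36.68, late in the 40 cycles run. miR-338-3p also split by number, from −10.26 to −6.08 in replicate 1 and from −3.67 to −2.97 in replicate 2. The vascular smooth muscle miRs (2 of 2 measured) ranged from −3.21 to −1.58 in Sham, −3.45 to −1.12 in Sural-SNI and −2.20 to −0.74 in Tibial-SNI. The part of these other cell types in the values below was not tested. In whole DRG, fewer cells of a type and less RNA per cell cannot be told apart.

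All 3 miRs were readily detected, with no Ct above 29.82. By mean Ct in Sham, miR-125a-5p (24.65 ± 0.33, SD, n = 4) ranked 11th and miR-125b-5p (24.93 ± 2.06, SD, n = 4) 15th of 154, while miR-99b (27.57 ± 1.44, SD, n = 4) ranked 51st. The Sham SDs of miR-99b and miR-125b-5p were thus several times that of miR-125a-5p before any normalisation.

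The −ΔCt of miR-99b in Sham was −3.20 and −2.20 in L3-DRG and −2.51 and −1.88 in L4-DRG (replicate 1, then replicate 2). In Sural-SNI it was −2.38 and −1.38 in L3-DRG and −2.59 and −1.72 in L4-DRG. In Tibial-SNI it was −2.96 and −1.64 in L3-DRG and −3.25 and −1.74 in L4-DRG. In each of these 6 pairs the replicate 1 array was the lower one, and the 3 groups overlapped.

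The −ΔCt of miR-125a-5p, from the same cluster, was ordered the other way round. In Sham it was 1.09 and 0.32 in L3-DRG and 0.96 and −0.46 in L4-DRG. In Sural-SNI it was 1.37 and −0.21 in L3-DRG and 0.75 and −0.51 in L4-DRG. In Tibial-SNI it was 1.48 and −0.27 in L3-DRG and 0.93 and −0.47 in L4-DRG. The replicate 1 array was the higher one in all 6 pairs, and the groups again overlapped.

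miR-125b-5p was ordered as miR-99b was. Its −ΔCt in Sham was −1.01 and 0.63 in L3-DRG and −0.52 and 1.66 in L4-DRG. In Sural-SNI it was 0.20 and 1.35 in L3-DRG and 0.00 and 1.44 in L4-DRG. In Tibial-SNI it was −0.56 and 1.64 in L3-DRG and −0.27 and 1.41 in L4-DRG. Its lowest array was the L3-DRG Sham replicate 1 and its highest the L4-DRG Sham replicate 2, so that the Sham arrays spanned all the others.

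For all 3 miRs the −ΔCt of the replicate 1 arrays did not overlap that of the replicate 2 arrays, as was so for 39.6% of the 154 miRs. The group means differed by less than this: miR-99b was at −2.45 ± 0.57 in Sham, −2.02 ± 0.56 in Sural-SNI and −2.40 ± 0.82 in Tibial-SNI (SD, n = 4 each). For miR-125a-5p the means were 0.48 ± 0.71, 0.35 ± 0.87 and 0.42 ± 0.94, and for miR-125b-5p 0.19 ± 1.20, 0.75 ± 0.75 and 0.55 ± 1.13, in the same order. No neighbouring groups in these orders stood apart beyond their spread. Over the 12 arrays the SD of −ΔCt was 0.63 for miR-99b, 0.76 for miR-125a-5p and 0.98 for miR-125b-5p, against a median of 0.74 over all miRs.

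**Figure D1:**
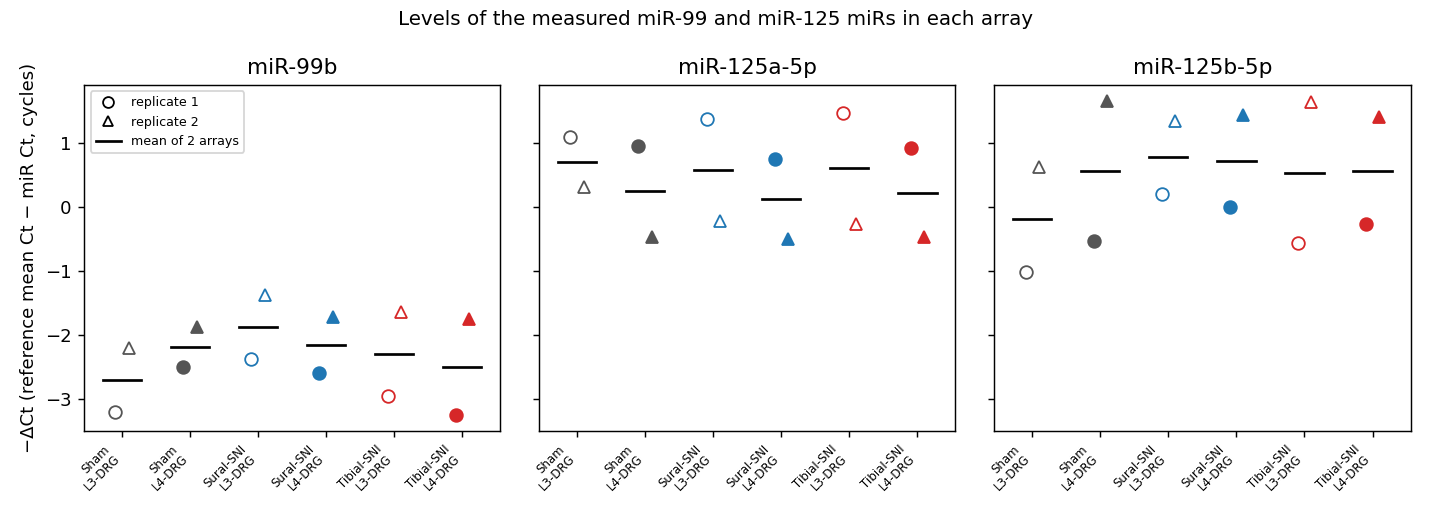
−ΔCt (cycles, vertical axis) of miR-99b, miR-125a-5p and miR-125b-5p on each of the 12 arrays by group and DRG level; circles are replicate 1, triangles replicate 2, open symbols L3-DRG, filled symbols L4-DRG, and bars the mean of 2 arrays. Replicate 1 lies below replicate 2 for miR-99b and miR-125b-5p and above it for miR-125a-5p in every pair.

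Because the reference assays themselves moved with the number (MammU6 had a mean Ct of 17.63 in replicate 1 and 18.49 in replicate 2, snoRNA135 32.87 and 28.93), the miRs were also set against each other within an array, where no reference enters. miR-99b minus miR-125a-5p, the log2 difference between these cluster mates, was −4.29 (L3-DRG Sham), −3.46 (L4-DRG Sham), −3.75 (L3-DRG Sural-SNI), −3.34 (L4-DRG Sural-SNI), −4.43 (L3-DRG Tibial-SNI) and −4.18 (L4-DRG Tibial-SNI) on the replicate 1 arrays. On the replicate 2 arrays it was −2.52, −1.42, −1.17, −1.21, −1.38 and −1.27 in the same order. The 2 sets did not overlap, with means of −3.91 ± 0.46 and −1.49 ± 0.51 (SD, n = 6 each), and 40.3% of the 11781 pairs of miRs in the table also had no overlap between the numbers.

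The third miR of the cluster, let-7e, stayed with miR-125a-5p. let-7e minus miR-125a-5p was −0.77 ± 0.33 (SD, n = 12) and ran from −1.45 to −0.31, with a mean of −0.90 in replicate 1 and −0.64 in replicate 2, and the sets overlapped. Over the 12 arrays an SD as small as 0.33 was found for 1.31% of the 11781 pairs, whereas miR-99b minus miR-125a-5p had an SD of 1.34, near the middle of all pairs (64.4% were as small or smaller). Within a number the SDs lay closer together, as let-7e minus miR-125a-5p had an SD of 0.36 in replicate 1 (12.8% of pairs were as small) and 0.25 in replicate 2 (7.12%), and that of miR-99b minus miR-125a-5p was 0.46 and 0.51 (22.5% and 45.2%).

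miR-125b-5p minus miR-125a-5p, a difference between miRs that share a seed but not a cluster, changed sign with the number. It was −2.10 to −0.75 on the 6 replicate 1 arrays, with miR-125a-5p the earlier to cross its threshold, and 0.31 to 2.13 on the 6 replicate 2 arrays, with miR-125b-5p the earlier. Such a change of sign in all arrays was seen for 5.3% of the pairs of miRs. The point where the sign turns depends on the efficiencies of both assays. miR-125b-5p minus miR-99b, miRs of different seeds and different clusters, was by contrast one of the steadier pairs, at 2.78 ± 0.46 (SD, n = 12) and 1.98 to 3.54, an SD that 6.46% of pairs matched or undercut, as 11.7% did within replicate 1 and 13.2% within replicate 2.

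In Ct units, miR-125a-5p was 0.17 cycles later in replicate 1 than in replicate 2 and let-7e 0.43, the 12th and 20th smallest of 154 such shifts. miR-99b was 2.59 and miR-125b-5p 3.25 cycles later, ranks 106 and 122, against a median shift of 2.05 over all miRs. The Ct of miR-99b and miR-125b-5p, but not that of miR-125a-5p, had no overlap between the numbers, as was so for 55.8% of the 154 miRs. The let-7 miRs of the other clusters moved with the bulk of the miRs, let-7a by 2.57 and let-7c by 2.17 cycles. The pair of assays for miR-351, which has the miR-125 seed, differed from each other: the assay with the mouse name shifted by 1.97 cycles and the one with the rat name by 0.55. Shifts of miR-99b and miR-125a-5p differed by 2.42 cycles, and 24.8% of all pairs differed by as much. The glial miR-338-3p, lower in −ΔCt on all replicate 1 arrays, was ordered by number as miR-99b and miR-125b-5p were. A −ΔCt without overlap between the numbers, in either direction, was found for 39.6% of the 154 miRs. The vascular smooth muscle miRs were also lower in replicate 1 at every group and level, and the skeletal muscle miRs were higher. The part of these cell types in the shift of the members was not tested. The cause of the shift with the number was not tested, and the labels do not say whether the numbers stand for rats, extractions or card runs.

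**Figure D2:**
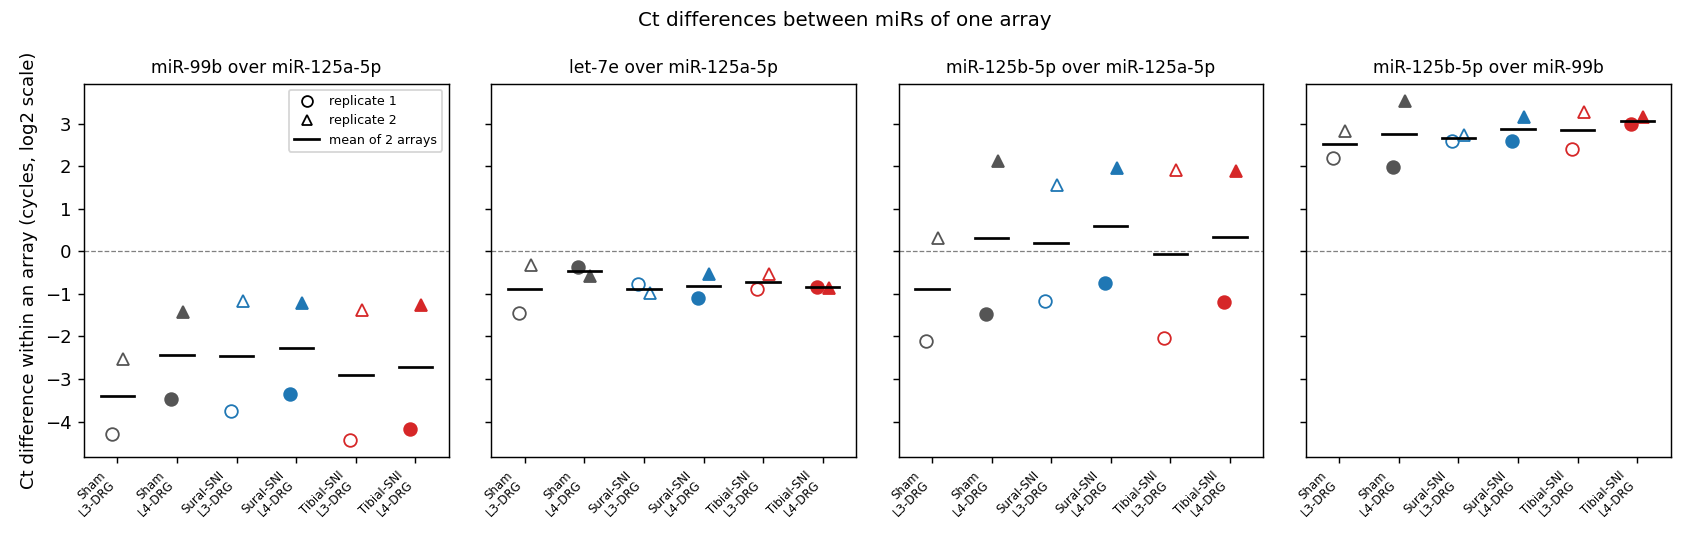
Ct difference within an array (cycles, log2 scale, vertical axis) for 4 pairs of miRs by group and DRG level; circles are replicate 1, triangles replicate 2, open symbols L3-DRG, filled symbols L4-DRG, bars the mean of 2 arrays, and the dashed line 0. miR-99b over miR-125a-5p and miR-125b-5p over miR-125a-5p split by number, while let-7e over miR-125a-5p lies between −1.45 and −0.31 on all 12 arrays.

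The injuries were first set against Sham. As the log2(fold change) of an SNI array against the Sham array of its level and number, miR-99b in Sural-SNI was 0.82 and 0.82 in L3-DRG and −0.08 and 0.16 in L4-DRG (replicate 1, then replicate 2). In Tibial-SNI it was 0.25 and 0.56 in L3-DRG and −0.75 and 0.13 in L4-DRG. miR-99b thus lay above Sham on all 4 SNI arrays of L3-DRG and on both sides of it in L4-DRG. The −0.75 came from the array that stood apart in muscle miRs.

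miR-125b-5p had the same layout. Its log2(fold change) in Sural-SNI was 1.21 and 0.72 in L3-DRG and 0.53 and −0.22 in L4-DRG. In Tibial-SNI it was 0.45 and 1.01 in L3-DRG and 0.26 and −0.26 in L4-DRG. It also lay above Sham on all 4 L3-DRG arrays and on both sides of it in L4-DRG. Being above 0 on all 4 SNI arrays of L3-DRG was common, at 41.6% of the 154 miRs, and both injuries used the same 2 Sham arrays there. When the mean Ct of all miRs served as reference, the L3-DRG values ran from −0.37 to 0.61 for miR-99b and from −0.17 to 0.76 for miR-125b-5p, so neither was above 0 on all 4 arrays.

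miR-125a-5p in Sural-SNI was 0.28 and −0.53 in L3-DRG and −0.20 and −0.04 in L4-DRG. In Tibial-SNI it was 0.38 and −0.59 in L3-DRG and −0.03 and −0.01 in L4-DRG. It lay on both sides of Sham in L3-DRG and slightly below it on all 4 SNI arrays of L4-DRG, as 14.9% of the miRs did. This held with no other reference tried: in L4-DRG the values ran from −0.79 to 0.28 with MammU6 alone, −0.45 to 0.66 with snoRNA135 alone, −0.40 to 0.10 with U87 alone and −0.22 to 0.073 with the mean Ct of all miRs. With the latter it was below 0 on all 4 SNI arrays of L3-DRG, from −0.89 to −0.17. The sensory neuron miRs were also below the matched Sham array on all 4 SNI arrays of L4-DRG, and their part in the values of miR-125a-5p was not tested.

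No member passed the test against Sham. In Sural-SNI minus Sham the limma estimate was 0.43 (SE 0.49, 95% confidence interval −0.66 to 1.52) for miR-99b, −0.12 (SE 0.58, −1.40 to 1.16) for miR-125a-5p and 0.56 (SE 0.72, −1.04 to 2.15) for miR-125b-5p, each at a Benjamini-Hochberg adjusted p of 1.00. In Tibial-SNI minus Sham it was 0.05 (SE 0.49, −1.04 to 1.14), −0.06 (SE 0.58, −1.34 to 1.22) and 0.36 (SE 0.72, −1.23 to 1.96), each at an adjusted p of 0.997. Of all 154 miRs, 0% passed in either comparison, and at an unadjusted p under 0.05 limma called 0 (Sural-SNI) and 1 (Tibial-SNI, 0.649%) of them. For 5 of these 6 estimates the interval held changes of more than 1 cycle in either direction, so this fit did not exclude a change of that size. With the replicate block, which takes out the split by number, the Sural-SNI minus Sham interval narrowed to −0.13 to 0.99 for miR-99b (unadjusted p = 0.117, adjusted p = 0.895 in limma) and to −0.057 to 1.17 for miR-125b-5p (0.0702 and 0.802). Under that block 10 of the 154 miRs (6.49%), no member among them, had an unadjusted p under 0.05 for Sural-SNI.

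**Figure D3:**
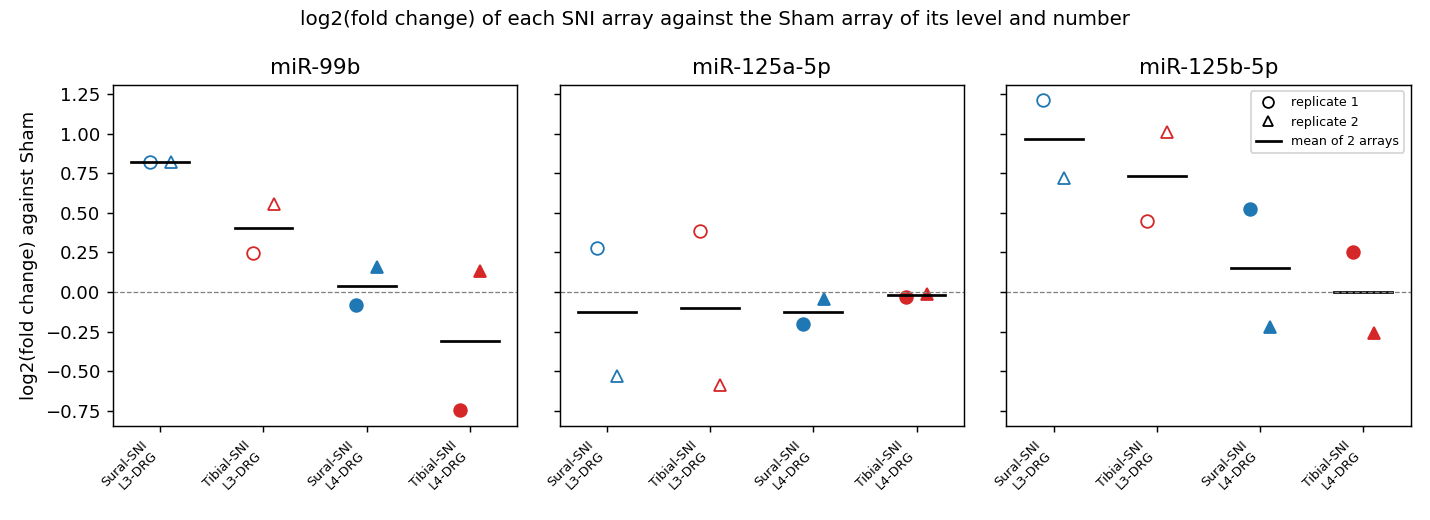
log2(fold change) of each SNI array against the Sham array of the same level and number (vertical axis) for the 3 miRs; circles are replicate 1, triangles replicate 2, open symbols L3-DRG, filled symbols L4-DRG, bars the mean of 2 arrays, and the dashed line 0. miR-99b and miR-125b-5p lie above 0 on the 4 L3-DRG arrays and on both sides of 0 in L4-DRG.

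The comparison of the injuries with each other addressed the study's main question, which miRs differ between a lasting and a resolving pain state. miR-99b was lower in Tibial-SNI than in Sural-SNI on all 4 matched pairs of arrays, by −0.66 to −0.03, and miR-125a-5p and miR-125b-5p differed in both directions. Such a one-sided layout was found for 14.3% of the miRs. With MammU6 alone or snoRNA135 alone as the reference miR-99b was lower on 3 of the 4 pairs, and its highest difference was 0.12 and 0.58. The limma estimate of Tibial-SNI minus Sural-SNI was −0.38 (SE 0.37, 95% confidence interval −1.24 to 0.47) for miR-99b, 0.06 (SE 0.31, −0.64 to 0.77) for miR-125a-5p and −0.19 (SE 0.40, −1.10 to 0.71) for miR-125b-5p, each at an adjusted p of 0.995. This fit was unpaired, as in the study, and used log2(fold change) values in which a Sural-SNI and a Tibial-SNI array share a Sham array. The spread of the Sham arrays therefore enters its SE but not its estimate. Its SE and p are thus not comparable with those of the tests against Sham. None of the 3 miRs was among the 0.649% of miRs (1 of 154) that passed. None was among the 4 (2.6%) with an unadjusted p under 0.05 or the 16 (10.4%) past the one-tailed p of 0.09 that the study used. With arrays of the same level and number as a replicate block, miR-99b came to a one-tailed p of 0.058 in limma, when 34 miRs (22.1%) passed that limit, and its adjusted p was 0.784. Without the L4-DRG Tibial-SNI replicate 1 array the miR-99b estimate was −0.12.

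Between the levels, miR-125a-5p was lower in L4-DRG than in L3-DRG in each of the 6 pairs that share a group and a number. The L4-DRG minus L3-DRG difference was −0.13 and −0.78 in Sham, −0.62 and −0.29 in Sural-SNI and −0.55 and −0.21 in Tibial-SNI (replicate 1, then replicate 2). This layout was found for 5 of the 154 miRs (3.25%), all lower in L4-DRG. The limma estimate was −0.43 (SE 0.47, 95% confidence interval −1.48 to 0.61, adjusted p = 0.987) without the block. With the replicate block the SE fell to 0.17 and the unadjusted p to 0.036, which made it 1 of 9 miRs (5.84%) under 0.05 in that limma fit, and the adjusted p was 0.622. With MammU6 or snoRNA135 alone as the reference, 5 of the 6 pairs were lower. let-7e, its cluster mate, was lower in 4 of 6 pairs with a mean of −0.32. The sensory neuron miRs were lower in L4-DRG than in L3-DRG on the 4 SNI pairs and higher on both Sham pairs, and their part in this difference was not tested.

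The L4-DRG minus L3-DRG estimate of miR-99b was 0.01 (SE 0.40, −0.88 to 0.90), and it was lower in L4-DRG in 4 of 6 pairs. miR-125b-5p came to 0.24 (SE 0.59, −1.06 to 1.55) and was higher in L4-DRG in 4 of 6 pairs. Both had an adjusted p of 0.987, 0% of the 154 miRs passed, and 3 (1.95%) had an unadjusted p under 0.05.

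Whether the response to injury differed between the levels was tested with the interaction of group and level. The estimates for Sural-SNI were −0.79 (SE 1.07) for miR-99b and −0.81 (SE 1.59) for miR-125b-5p, that is, a smaller difference from Sham in L4-DRG, and 0.00 (SE 1.30) for miR-125a-5p. For Tibial-SNI they were −0.71 (SE 1.07), −0.73 (SE 1.59) and 0.08 (SE 1.30) in the same order, and these share the Sham arrays with the former. The median over all miRs was −0.35 and −0.47, in the same direction as the estimates of miR-99b and miR-125b-5p. No member passed (adjusted p 0.999 for Sural-SNI and 1.00 for Tibial-SNI in limma), and 0% of the 154 miRs did. The difference between the injuries changed by 0.08 (SE 0.56 to 0.66) between the levels for each of the 3 miRs, with an adjusted p of 0.989.

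**Figure D4:**
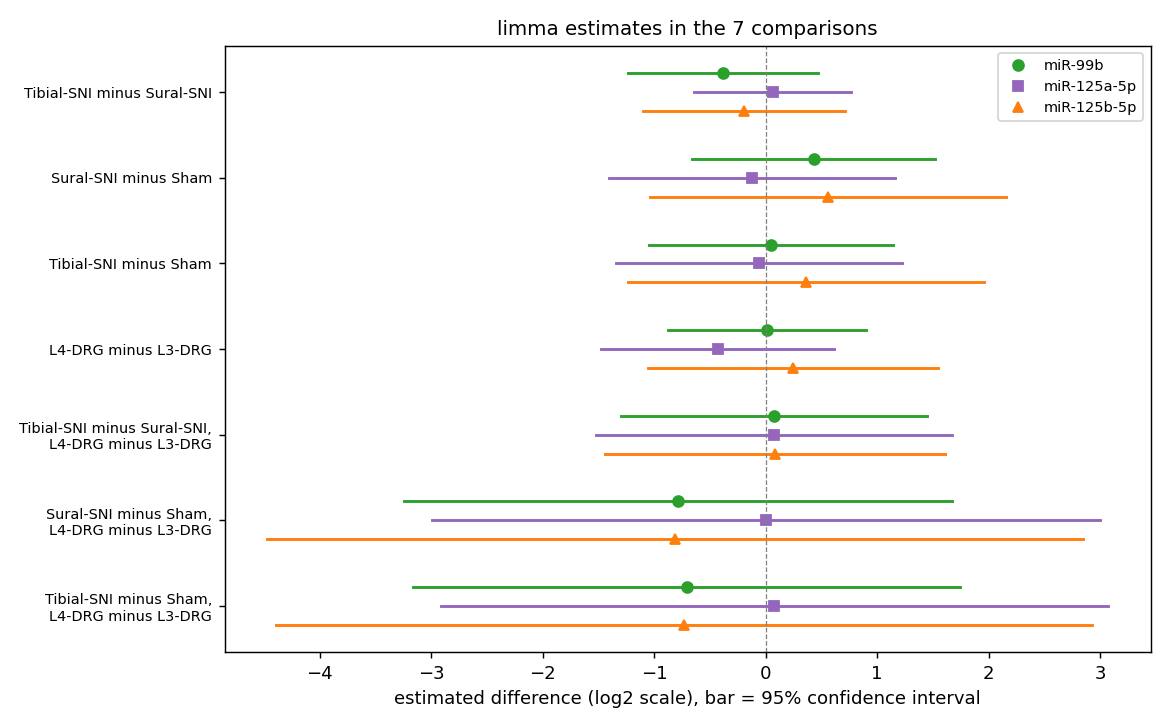
limma estimates (log2 scale, horizontal axis) with 95% confidence intervals for the 3 miRs in the 7 comparisons; the lower 3 are interactions of group and level. Every interval includes 0.

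The differences between the members within an array overlapped between the groups and between the levels. miR-99b minus miR-125a-5p was −2.92 ± 1.24 in Sham, −2.37 ± 1.37 in Sural-SNI and −2.81 ± 1.72 in Tibial-SNI (SD, n = 4 each). miR-125b-5p minus miR-125a-5p was −0.29 ± 1.91, 0.40 ± 1.58 and 0.14 ± 2.05, and miR-125b-5p minus miR-99b 2.64 ± 0.70, 2.76 ± 0.27 and 2.95 ± 0.39 in the same order. In exact two-sided permutation tests of 4 against 4 arrays, where the smallest possible p is 0.0286, the 9 tests of these 3 pairs gave a p of at least 0.457, and each was 1.00 after adjustment over the 11781 pairs. An exact p under 0.05 was reached by 1.21% of all pairs for Tibial-SNI minus Sural-SNI, 0.917% for Sural-SNI minus Sham and 1% for Tibial-SNI minus Sham.

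Within matched pairs of arrays (same level and number), miR-99b minus miR-125a-5p was higher in Sural-SNI than in Sham on all 4 pairs, by 0.55 and 1.35 in L3-DRG and 0.12 and 0.20 in L4-DRG (replicate 1, then replicate 2). It was lower in Tibial-SNI than in Sural-SNI on all 4, by −0.68 and −0.21 in L3-DRG and −0.84 and −0.057 in L4-DRG. The exact paired p was 0.125 in both, the smallest that 4 pairs allow, and the adjusted p was 0.844 and 0.924. One direction on all 4 pairs was shared by 14.8% of all pairs of miRs in the former comparison and 12.6% in the latter, and both use the Sural-SNI arrays. In Tibial-SNI minus Sham the difference was on either side of 0, from −0.72 to 1.14.

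By level, miR-99b minus miR-125a-5p was −2.92 ± 1.45 in L3-DRG and −2.48 ± 1.33 in L4-DRG (SD, n = 6 each), and miR-125b-5p minus miR-125a-5p −0.25 ± 1.77 and 0.42 ± 1.73. The exact permutation p was 0.561 and 0.509, and 0.0625 for both within pairs of the same group and number, where 0.0313 is the smallest possible and the adjusted p was 0.638. Without the pairing, 2.91% of all pairs had an exact p under 0.05 between the levels.

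The miRs whose array-centred Ct (Ct minus the mean Ct of the array's miRs) was most like that of each member were looked up over the 12 arrays. Since the arrays form 2 sets, Pearson's r is given within each number (n = 6), as a description. For miR-99b they were miR-301b (r = 0.78 in replicate 1 and 0.53 in replicate 2), miR-10b (0.91 and −0.74) and miR-27b (0.63 and −0.04). For miR-125a-5p they were miR-383 (0.82 and 0.84), miR-320 (−0.38 and 0.77) and miR-433 (−0.57 and 0.67), with let-7e the next (0.22 and 0.92). For miR-125b-5p they were miR-142-3p (0.93 and 0.52), miR-106a (0.89 and 0.04) and miR-26a (0.67 and 0.64). The likeness held its sign and size within both numbers for miR-383 with miR-125a-5p and for miR-26a with miR-125b-5p. For miR-301b and miR-142-3p it kept its sign with a lower r in replicate 2. It was all but absent in replicate 2 for miR-27b (−0.04) and miR-106a (0.04), and turned sign between the numbers for miR-10b, miR-320 and miR-433. miR-125a-5p and miR-125b-5p ran against each other in both (−0.54 and −0.96), and miR-99b and miR-125a-5p had r = −0.10 and −0.28.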

How the data were processed

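The authors ran TaqMan Rodent MicroRNA Card A with 40 cycles and no limit on Ct, and deposited a table of Ct values for the assays detected on all 12 arrays. A second deposited table holds the authors' own fold changes of the SNI groups and was not used. MammU6 (4 wells) was averaged, −ΔCt and log2(fold change) were computed from Ct, and limma 3.58.1 (R 4.3.3) was fitted over all 154 miRs with Benjamini-Hochberg adjustment. Differences within an array were tested over all pairs of miRs by exact permutation (Python 3.11.15). The scripts were tested on simulated data. The number of arrays limits the precision.

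Arrays of different groups were alike by replicate number. At the same level, deviations from the group means correlated at 0.46 to 0.81 for the same number (12 pairs) and at −0.70 to −0.56 for different numbers. Centring on the group mean favours opposite signs between the numbers. These values show the split by number, not that an SNI array belongs with the Sham array of its level and number. The members and lists were chosen with earlier results of these data known. Named miRs were the members, the let-7 miRs of their clusters, other assays with a member's seed, and the 3 miRs most like each member. Of the 154 assay names, 128 matched a RefSeq rat mature miR. Alternatives were other references, the block, a Ct of at most 35, and leaving out each array.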

Additional observations from a re-analysis of the deposited data

Results flagged for a closer look

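Of 42 sets of 4 or 6 arrays checked for an array far from the rest (the 3 miRs and their differences within an array, by group and by level), 1 had such an array, and chance alone marks about 1 set in 20. The log2(fold change) of miR-125a-5p in L4-DRG Sural-SNI replicate 1 was −0.20, against −0.04 to −0.01 on the other 3 SNI arrays of L4-DRG. The 4 values together spanned less than the spread of miR-125a-5p between the L3-DRG arrays. No result differed between the levels by the test of the interaction.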

How the results depend on the processing

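None of the 33 results (21 limma estimates and 12 tests of differences within an array) passed an adjusted p of 0.05 in any of the 537 values computed, the lowest adjusted p being 0.487. Of the 33, 21 changed sign in at least 1 alternative, while 12 kept it in all that were run. With the replicate block none passed an adjusted p of 0.05. The arrays are balanced over group, level and number, so the block left every estimate as it was and could not change a sign. In limma with the block, miR-125a-5p in L4-DRG minus L3-DRG came to an unadjusted p of 0.036. There miR-99b in Tibial-SNI minus Sural-SNI came to a one-tailed p of 0.058. Signs also could not change with a Ct of at most 35 on all arrays, with both Sham arrays averaged before the fold change, or without moderation. These alternatives leave the estimates of the members as they are and bear only on the p-values.

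With MammU6 alone as the reference the sign changed for Tibial-SNI minus Sural-SNI of miR-125a-5p (−0.091), for Tibial-SNI minus Sham of miR-99b (−0.041), and for the interactions with level of Tibial-SNI minus Sural-SNI (miR-99b −0.20, miR-125a-5p −0.20, miR-125b-5p −0.19), Sural-SNI minus Sham (miR-125a-5p −0.017) and Tibial-SNI minus Sham (miR-125a-5p −0.21). With snoRNA135 alone it changed for L4-DRG minus L3-DRG of miR-99b (−0.16). With U87 alone it changed for Tibial-SNI minus Sham of miR-125a-5p (0.033) and for the Sural-SNI minus Sham interaction of miR-125a-5p (−0.090). With the mean of all miRs it changed for Tibial-SNI minus Sural-SNI of miR-125a-5p (−0.018) and Tibial-SNI minus Sham of miR-99b (−0.19). The cause was not tested.

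In the limma fits of Tibial-SNI minus Sural-SNI and its interaction, leaving out a Sham array also took out the fold changes computed from it. Leaving out 1 array at a time gave estimates on both sides of 0 for Tibial-SNI minus Sural-SNI (miR-125a-5p −0.085 to 0.24, miR-125b-5p −0.45 to 0.023), Sural-SNI minus Sham (miR-125a-5p −0.43 to 0.17), Tibial-SNI minus Sham (miR-99b −0.24 to 0.37, miR-125a-5p −0.38 to 0.27, miR-125b-5p −0.088 to 0.87), L4-DRG minus L3-DRG (miR-99b −0.18 to 0.23, miR-125b-5p −0.094 to 0.55). It did so for the Tibial-SNI minus Sural-SNI interaction with level (miR-99b −0.36 to 0.52, miR-125a-5p −0.41 to 0.56, miR-125b-5p −0.44 to 0.61), the Sural-SNI minus Sham interaction with level (miR-125a-5p −0.79 to 0.79, miR-125b-5p −1.91 to 0.28), the Tibial-SNI minus Sham interaction with level (miR-99b −1.46 to 0.046, miR-125a-5p −0.79 to 0.95, miR-125b-5p −1.83 to 0.37), and for Tibial-SNI minus Sural-SNI within an array (miR-99b minus miR-125a-5p −0.96 to 0.093, miR-125b-5p minus miR-125a-5p −0.85 to 0.47), Sural-SNI minus Sham within an array (miR-125b-5p minus miR-99b −0.090 to 0.43), Tibial-SNI minus Sham within an array (miR-99b minus miR-125a-5p −0.41 to 0.65, miR-125b-5p minus miR-125a-5p −0.18 to 1.23).

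The deposited fold changes, listed as an alternative, were not run, since they are the authors' own comparisons. No member had a Ct above 29.82 on any array.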
